A study of Homo sapiens with 38 samples.

Results

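The comparison described here is a difference between differences. It asks whether the RNA captured by rPAL departed from total RNA in the same way in large vesicles as in cells, in the human line HL60. For every feature the log2 ratio of rPAL-enriched RNA over total RNA in HL60 cells was subtracted from the same ratio in HL60 large extracellular vesicles (lEV). A positive value means that rPAL enrichment was higher in lEV, and a negative value that it was lower in lEV. Of the 38 libraries of the series, 12 enter it, chosen by their labels and not by any measured value. They are 3 libraries of lEV rPAL RNA, 3 of lEV total RNA, 3 of cell rPAL RNA and 3 of cell total RNA, and all 12 are labelled as wild-type HL60.

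HL60 is a promyelocytic line derived from a patient with acute myeloid leukaemia, and its genotype is labelled WT in all 4 groups. No group carried a transgene or a drug treatment in the labels. Cells for cell RNA were grown in RPMI-1640 with 10% fetal bovine serum, whereas cells for vesicle collection were kept in the same medium without serum for 2 days. Source and culture therefore changed together between vesicle RNA and cell RNA, and their parts cannot be told apart. Both kinds of RNA were made into small RNA libraries that were size-selected on a gel. Whether the replicates came from separate cultures is not stated in the labels, so the p-values reflect only the spread among these libraries, which may be technical.

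GlycoRNA is small RNA that carries glycans capped with sialic acid, and much of it is displayed on the cell surface. In rPAL, periodate oxidises the sialic acid to an aldehyde, the aldehyde is ligated to biotin, and the biotinylated RNA is pulled down. Small RNAs reported among glycoRNAs in mammalian cells include tRNA, Y RNA, small nuclear RNA (snRNA) and small nucleolar RNA (snoRNA). Transfer RNA brings amino acids to the ribosome and is a common cargo of extracellular vesicles, often as fragments, as are Y RNA and pieces of ribosomal RNA (rRNA).

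The sequences below belong to the named features on which the results turn. The first 4 are mitochondrial tRNA genes whose enrichment was lower in lEV than in cells. They are transcribed strands from GENCODE 29 on GRCh38, without the CCA end that is added after transcription, and the capitals mark the anticodon. MT-TV (valine) lies at chrM:1602-1670 on the plus strand, MT-TC (cysteine) at chrM:5761-5826 on the minus strand, MT-TF (phenylalanine) at chrM:577-647 on the plus strand and MT-TQ (glutamine) at chrM:4329-4400 on the minus strand.
MT-TV: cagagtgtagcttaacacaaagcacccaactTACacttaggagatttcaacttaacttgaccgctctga
MT-TC: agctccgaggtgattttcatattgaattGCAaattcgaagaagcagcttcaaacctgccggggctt
MT-TF: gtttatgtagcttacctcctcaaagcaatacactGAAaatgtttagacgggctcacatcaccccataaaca
MT-TQ: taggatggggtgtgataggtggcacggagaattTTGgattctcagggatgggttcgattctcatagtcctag

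The next 3 are the Y RNA gene RNY4 and 2 of its pseudogene copies, shown because the copies were called in the comparison and the parent gene was not. RNY4 lies at chr7:148963315-148963410 on the plus strand, RNY4P20 at chr6:151298841-151298933 on the minus strand and RNY4P6 at chr11:117015897-117015992 on the plus strand (GENCODE 29, GRCh38). RNY4P6 differs from RNY4 by 4 edits over 96 bases, and RNY4P20, of 93 bases, by 10 edits. With so few differences short reads may fit more than 1 of these loci, and how the authors counted such reads is not given in the sources used here.
RNY4: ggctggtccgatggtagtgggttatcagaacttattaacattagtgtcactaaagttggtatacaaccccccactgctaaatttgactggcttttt
RNY4P20: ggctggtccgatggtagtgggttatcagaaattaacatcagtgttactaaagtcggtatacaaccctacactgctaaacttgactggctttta
RNY4P6: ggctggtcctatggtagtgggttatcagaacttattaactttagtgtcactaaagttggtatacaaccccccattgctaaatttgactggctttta

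The last is the mature microRNA annotated at MIR7977, a gene whose counts rPAL enriched in cells. The table counts the gene and does not say from which form of its RNA the reads came. The mature form lies at chr3:176515103-176515120 on the plus strand (RefSeq, GRCh38.p14), and the capitals mark its seed, bases 2 to 8, the stretch that pairs with target mRNAs.
hsa-miR-7977: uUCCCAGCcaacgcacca

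The lEV rPAL libraries were the shallowest and the least alike. They held 4325249 to 4975032 counts, against 11927270 to 13669666 in lEV total RNA, 5929946 to 9652811 in cell rPAL RNA and 14016683 to 14892937 in cell total RNA. Pearson correlations of log2(CPM + 1) across features between libraries of a group, where CPM is a count scaled to the library total, lay between 0.591 and 0.622 in lEV rPAL RNA. They lay between 0.926 and 0.957 in lEV total RNA, 0.88 and 0.895 in cell rPAL RNA, and 0.984 and 0.986 in cell total RNA. The summed level of 8 promyelocytic marker genes, 3 of them without a count in lEV rPAL RNA, was 0 to 71.2 CPM in lEV rPAL, 10.1 to 19.3 CPM in lEV total, 19.7 to 28.1 CPM in cell rPAL and 25.3 to 28.7 CPM in cell total libraries. The summed levels of erythroid, platelet, serum or liver, lymphoid and epithelial markers stayed at or under 4.82 CPM in every library. Fold changes below are after TMM scaling, whose factors were 1.22 to 2.21 in lEV rPAL, 0.52 to 0.89 in lEV total, 1.12 to 1.24 in cell rPAL and 0.77 to 0.93 in cell total libraries, so ratios of printed CPM can differ from them.

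Most features that were called had lower enrichment in lEV. Of 8458 features tested, 1075 differed (12.7%), 113 higher (1.34%) and 962 lower (11.4%) in lEV than in cells, with edgeR's quasi-likelihood test at an adjusted p under 0.05. The features called lower included 219 tRNA entries and 9 mitochondrial tRNA genes, and the most abundant ones called higher were rRNA entries. Of the 962 called lower, 564 (58.6%) had no count in any lEV rPAL library and 398 (41.4%) had counts in all 4 groups. Of the 113 called higher, 74 (65.5%) had counts in all 4 groups. In bulk libraries, fewer vesicles or cells that hold an RNA and less of it in each cannot be told apart.

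The difference can come from either source. Within lEV, rPAL over total RNA gave 3475 calls (41.1% of features), 905 higher (10.7%) and 2570 lower (30.4%). Within cells it gave 1527 calls (18.1%), 692 higher (8.18%) and 835 lower (9.87%). Of the 962 features with a lower difference, 682 were lower in lEV rPAL than in lEV total RNA and not called in cells. A further 136 were higher in cell rPAL than in cell total RNA and not called in lEV, and 61 were both. Of the 113 with a higher difference, 60 were higher in lEV rPAL than in lEV total RNA and not called in cells.

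These totals rest on the scaling and on single libraries. With library totals unscaled the calls were 118 higher and 367 lower, with DESeq2's size factors 132 and 318, and with the DESeq2 test 537 and 770. The median of all features was -0.79 after TMM scaling, -0.49 with features at no count in a group set to their bound, and 0.23 with DESeq2's size factors. Class medians are therefore also given relative to the median of all features. Leaving out a cell total library left 181, 169 and 185 calls without replicates 1, 2 and 3. Leaving out a lEV total library left 443, 596 and 377 calls without replicates 1, 2 and 3, and the count was 2039 without lEV rPAL replicate 2. In all 19 alternatives 110 features were called the same way, 6 higher and 104 lower, and 93 of these were tRNA entries. Every call named below that was lost in some fit leaving out 1 library was lost without at least 1 of the cell total libraries.

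**Figure D1:**
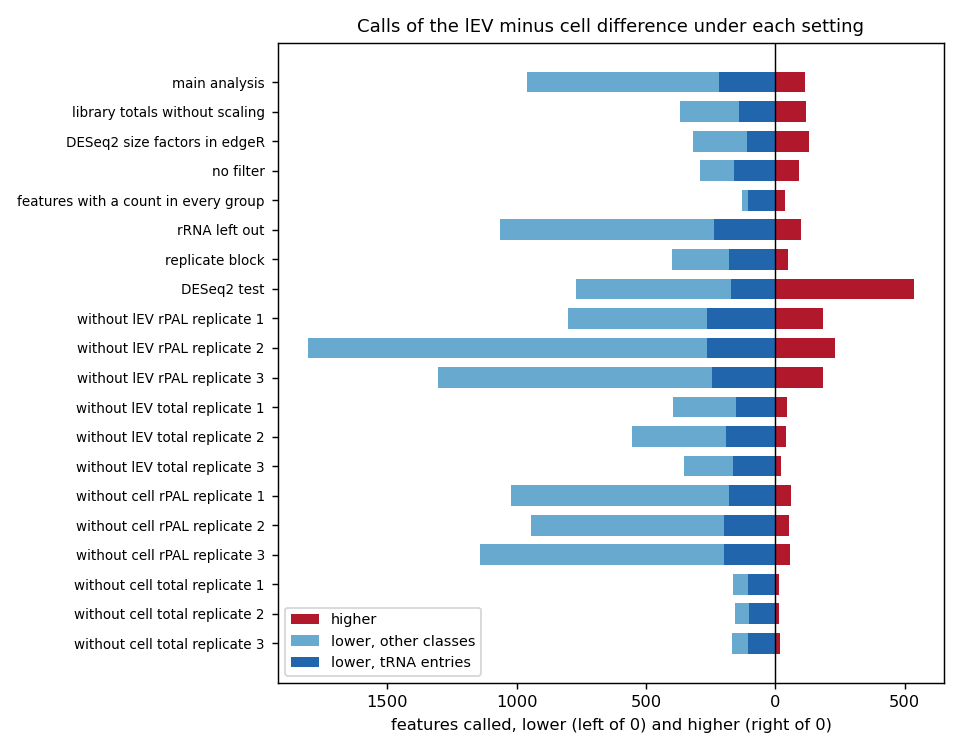
Number of features called higher and lower in the enrichment difference (HL60 lEV minus cells) in the reported fit (main analysis) and in each of the 19 alternatives, at an adjusted p under 0.05, with tRNA entries among the lower calls in a darker blue. Lower calls outnumber higher calls in every setting, and the fewest calls come with a count required in every group (167) and without a cell total library (169 to 185).

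Among RNA classes, tRNA had the widest change in share of counts and held 93 of the 110 calls made in all 19 alternatives. RNAcentral tRNA entries took 22.3, 19.6 and 13.6% of counts in lEV rPAL replicates 1 to 3, against 57.6, 63.2 and 51.1% in lEV total replicates. In cells they took 65.0, 74.1 and 62.0% of counts in rPAL replicates, against 19.7, 20.7 and 20.1% in total replicates. The shares did not overlap in either source, and they moved in opposite directions, down by rPAL in lEV and up by rPAL in cells. The difference of the 2 changes was -85.7 percentage points. Since shares of a library add up to a fixed total, a fall of 1 class raises the others.

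Single entries showed the same shift. The table holds 558 tRNA entries, of which 479 were tested. Of these 219 were lower (45.7%, against 11.4% of all features) and none was higher. Among the alternatives, 4 were higher in the DESeq2 test and 1 without cell rPAL replicate 2. The median log2 difference of the tested entries was -3.10, or -2.31 relative to all features. It was -3.09 with bounded features at their bound. Of the 479 entries 465 had counts in all 4 groups, so the missing counts that mark many other lower calls were rare here. Of the 219 called lower, 2 had no lEV rPAL count. The number called lower was 100 to 266 over the alternatives. It was 139 without scaling, 111 with DESeq2's size factors, 106 with a count required in every group, and 104, 100 and 106 without cell total replicates 1, 2 and 3. The median relative to all features stayed between -2.96 and -1.39.

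**Figure D2:**
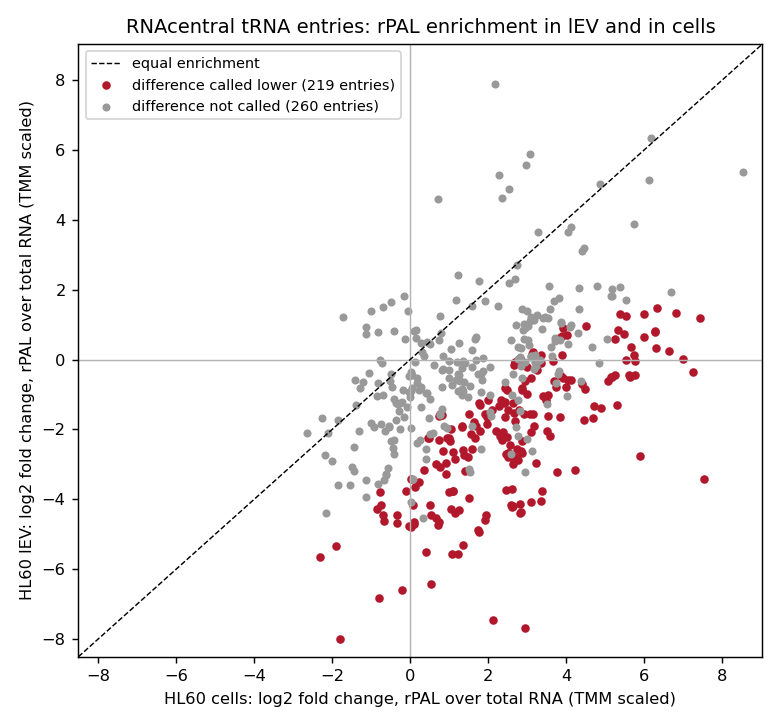
Log2 ratio of rPAL over total RNA for each of the 479 tested tRNA entries, in HL60 cells (horizontal axis) and in HL60 lEV (vertical axis), after TMM scaling. The 219 entries called lower in lEV than in cells lie below the diagonal, most of them to the right of 0 on the cell axis, and the other 260 were not called.

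Relative to all features, and after TMM scaling, most of the tRNA shift in single entries lay in cells. The median log2 ratio of rPAL over total RNA was -0.89 for tRNA entries in lEV, where 11 were higher (2.3%, against 10.7% of all features) and 156 lower (32.6%, against 30.4%). In cells it was 2.06, with 202 higher (42.2%, against 8.18%) and 4 lower (0.835%, against 9.87%). The medians of all features were -0.78 in lEV and 0.07 in cells. Of the 219 entries, 90 were higher in cell rPAL RNA and not called in lEV, 75 were lower in lEV rPAL RNA and not called in cells, and 42 were both. Between sources, rPAL tRNA was lower in lEV than in cells for 357 entries and higher for none (median -3.54), against 28.2% lower and 5.06% higher of all features. Total tRNA differed less, with 51 entries higher and 13 lower in lEV than in cells (median -0.23), against 0.828% and 1.53% of all features. The more abundant entries were called more often, 162 of 240 with a median of -3.46, than the less abundant, 57 of 239 with a median of -2.36.

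The entries were not alike in how they came to differ. URS000070B37B, the second most abundant tRNA entry called lower, had 590, 1324 and 465 CPM in lEV rPAL replicates 1 to 3, against 66998, 102643 and 91594 CPM in lEV total replicates. In cells it had 698, 2332 and 2220 CPM in rPAL replicates, against 3337, 5868 and 4089 CPM in total replicates. It was a leading tRNA of total lEV RNA, rPAL libraries held far less of it in lEV, and the groups did not overlap in either source. Its log2 difference was -6.21 ± 0.88 (SE, n = 3 libraries a group, adjusted p = 0.000678), with log2 ratios of -8.01 in lEV and -1.80 in cells, and it was called in all 19 alternatives.

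URS0000145C5E showed the other route. It had 3541, 2966 and 1095 CPM in lEV rPAL replicates, against 471, 275 and 729 CPM in lEV total replicates. The cell values were 55279, 50450 and 47326 CPM in rPAL replicates, against 845, 843 and 1044 CPM in total replicates. This entry was higher in rPAL than in total RNA in both sources, without overlap, and by far more in cells. The log2 difference was -4.07 ± 0.78 (SE, adjusted p = 0.00596), from a log2 ratio of 1.31 in lEV that was not called (adjusted p = 0.0612) and of 5.39 in cells (adjusted p = 0.000183). It was called in all 19 alternatives.

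The most abundant tRNA entry called lower, URS000038803E, had 2211, 9481 and 1938 CPM in lEV rPAL replicates, against 121190, 87039 and 77674 CPM in lEV total replicates. HL60 cells themselves had 1090, 2743 and 2427 CPM in rPAL replicates, against 5517, 10056 and 6789 CPM in total replicates. Neither source showed overlap, and replicate 2 was the highest lEV rPAL library. This gave a log2 difference of -3.36 ± 0.93 (SE, adjusted p = 0.031), called in 10 of 19 alternatives and not without lEV total replicate 1 or 2 or any single cell total library. Without lEV rPAL replicate 2 the log2 difference was -4.87. Among tRNA entries 28 fell into 9 sets that appear to share reads, so the count of 219 is of entries and not of independent tRNAs. The anticodon of these entries is not given in the sources used here.

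Mitochondrial tRNA genes differed in the same direction. These tRNAs are made inside mitochondria from the organelle's own genome and serve its ribosomes. Of 22 genes 21 were tested, 9 were lower (42.9%, against 11.4% of all features) and none was higher, also not in any of the 19 alternatives. The number lower was 5 without scaling and with DESeq2's size factors, 5 without lEV total replicate 1, 2 or 3, and 4 without cell total replicate 1, 2 or 3. It was 1 with a count required in every group, where 7 genes were tested. The fitted median was -5.51, or -4.72 relative to all features, and it was -2.74 with bounded genes at their bound and -2.01 over the 7 genes with counts in all 4 groups. Of the 21 genes, 14 had no count in any lEV rPAL library. As a share of counts the class held 0.00332, 0.0106 and 0.00909% in lEV rPAL replicates, against 0.0183, 0.0563 and 0.032% in lEV total replicates. In cells it held 0.266, 0.454 and 0.442% in rPAL replicates, against 0.122, 0.0928 and 0.0554% in total replicates. Neither source overlapped, but the rise in cells was that of MT-TV, which made up 90.7, 90.1 and 90.8% of the class in cell rPAL replicates. Without MT-TV the class held 0.0248, 0.045 and 0.0407% in cell rPAL replicates, against 0.112, 0.0872 and 0.0481% in cell total replicates, so rPAL was then below total RNA in cells too. By gene, 17 were lower (81.0%, against 30.4% of all features) and none higher in rPAL than in total RNA in lEV (median -8.09). In cells 6 were lower (28.6%, against 9.87%) and 2 higher (9.52%, against 8.18%), with a median of -2.49.

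MT-TV, the tRNA for valine, was the called mitochondrial tRNA with counts in every lEV rPAL library. It had 22.2, 48.1 and 66.5 CPM in lEV rPAL replicates, against 18.0, 26 and 134.4 CPM in lEV total replicates. Its levels in cells were 2411, 4092 and 4015 CPM in rPAL replicates, against 98.4, 56.5 and 72.8 CPM in total replicates. The 2 kinds of lEV RNA overlapped, whereas the cell groups stood far apart. The fitted log2 difference was -6.62 ± 0.91 (SE, adjusted p = 0.000576), from -1.50 in lEV (adjusted p = 0.0553) and 5.12 in cells (adjusted p = 0.000271), and all 19 alternatives called it.

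MT-TC, the tRNA for cysteine, had no count in any lEV rPAL library, against 1.59, 2.41 and 3.7 CPM in lEV total replicates. Among cell libraries it had 69.3, 81.0 and 77.0 CPM in rPAL replicates, against 4.64, 2.35 and 4.05 CPM in total replicates. The groups did not overlap in either source. Where a group had no count, its level was set to 3 counts over the group, or 0.214 CPM in lEV rPAL RNA, and the fold was taken without TMM scaling. On that scale the rPAL enrichment of MT-TC was at least 256-fold lower in lEV than in cells (adjusted p = 0.000312), and the call held in all 18 alternatives that tested it.

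MT-TQ, the tRNA for glutamine, behaved differently in cells. It had no count in lEV rPAL libraries, against 15.3, 34.0 and 30.7 CPM in lEV total replicates. Cell libraries of rPAL RNA had 5.4, 30.4 and 30.2 CPM, against 24.8, 22.2 and 19.6 CPM in cell total libraries. The cell groups overlapped and the lEV groups did not, and the enrichment was at least 135-fold lower in lEV (adjusted p = 0.00119). MT-TF, the tRNA for phenylalanine, also had no lEV rPAL count, against 1.34, 4.39 and 8.73 CPM in lEV total replicates. For cells the levels were 55.5, 31.8 and 28.9 CPM in rPAL replicates, against 45.6, 17.1 and 26.6 CPM in total replicates, which overlapped. Its enrichment was at least 29.4-fold lower in lEV (adjusted p = 0.00449). MT-TG, MT-TD, MT-TP, MT-TT and MT-TM, the tRNAs for glycine, aspartate, proline, threonine and methionine, were also called, at bounds of at least 9.34, 10.1, 7.51, 6.28 and 2.83-fold lower.

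Not every gene of the list could be called. MT-TH, the tRNA for histidine, had 4.39 CPM in lEV rPAL replicate 2 and no count in the other two, with a log2 difference of -5.51 (adjusted p = 0.0712). Without that library its log2 difference was -11.77 and it was called. MT-TN, the tRNA for asparagine, had a positive log2 difference of 1.05 (adjusted p = 0.701), which was -0.72 without lEV rPAL replicate 2.

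**Figure D3:**
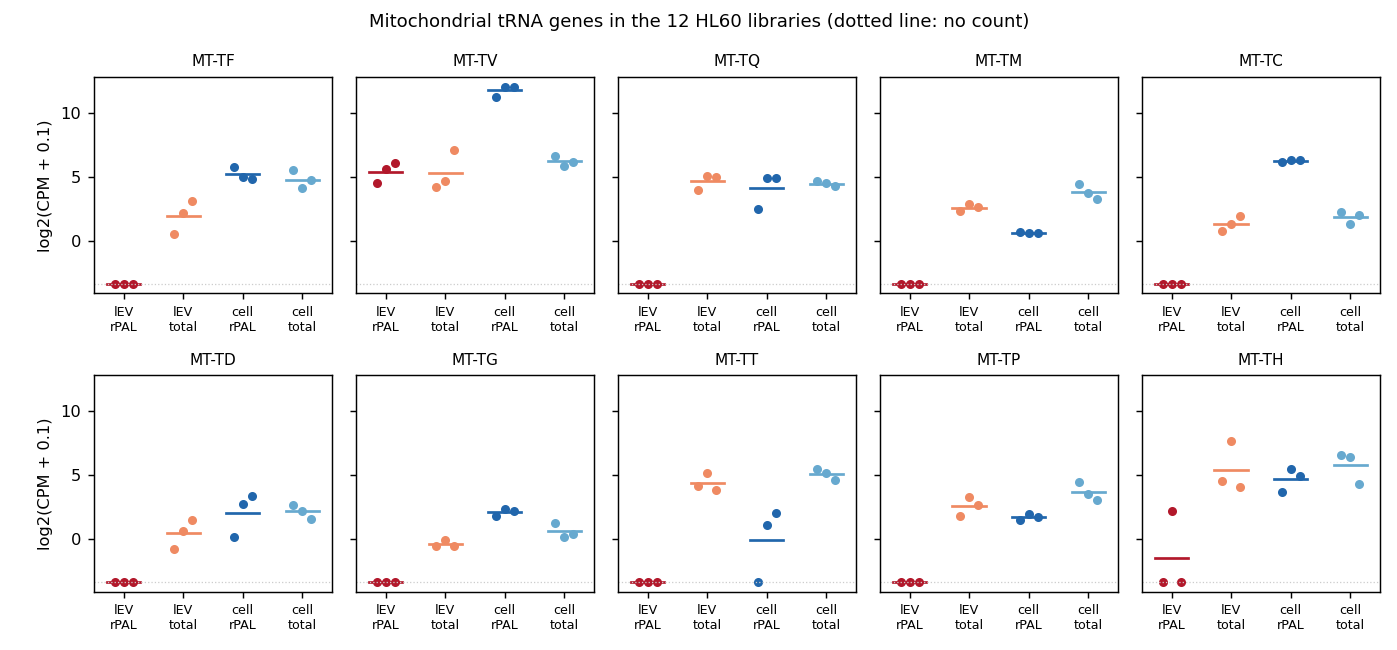
Level of 10 mitochondrial tRNA genes in each of the 12 HL60 libraries, as log2(CPM + 0.1), in lEV rPAL, lEV total, cell rPAL and cell total RNA. Points at the bottom of the axis are libraries without a count, and most of the lEV rPAL points lie there, while MT-TV has counts in all 12 libraries.

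Mitochondrial mRNAs are copied from the same genome and often sit directly beside these tRNAs. Of 13 mRNAs tested 3 were lower (23.1%, against 11.4% of all features) and none was higher, with a median of -1.34, or -0.56 relative to all features. MT-CO1, a subunit of cytochrome c oxidase, had 117.7, 296.2 and 332.1 CPM in lEV rPAL replicates, against 75.8, 142.8 and 216.6 CPM in lEV total replicates. In cells it had 974.0, 981.8 and 687.0 CPM in rPAL replicates, against 152.7, 103.4 and 112.1 CPM in total replicates. The lEV groups overlapped and the cell groups did not. The enrichment difference was -2.94 ± 0.76 (log2, SE, adjusted p = 0.024), called in 10 of 19 alternatives and not without lEV total replicate 3 or any single cell total library.

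MT-ND2, a subunit of complex I, had 1.91, 5.78 and 8.84 CPM in lEV rPAL replicates, against 41.2, 69.1 and 99.3 CPM in lEV total replicates. The cell values were 46.4, 82.0 and 69.3 CPM in rPAL replicates, against 97.0, 68.3 and 71.2 CPM in total replicates. Here lEV stood apart and the cell groups overlapped, the reverse of MT-CO1. Its log2 difference was -4.35 (adjusted p = 0.00933), called in 14 of 19 alternatives and not without any single cell total library. MT-CO2, another oxidase subunit, was the other call (-2.93 ± 0.92, SE, adjusted p = 0.046, called in 4 of 19 alternatives).

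As a share of counts, ribosomal RNA moved the other way. Ribosomal RNA entries took 59.4, 41.8 and 63.3% of counts in lEV rPAL replicates, against 6.86, 4.94 and 5.69% in lEV total replicates. In cells they took 5.33, 7.72 and 6.32% in rPAL replicates, against 14.6, 13.7 and 12.7% in total replicates. The groups did not overlap in either source, and the difference of the 2 changes was 56.2 percentage points. By entry, 3 of 45 tested were higher (6.67%, against 1.34% of all features) and none was lower, also in the 18 alternatives that tested rRNA. The number higher was 9 in the DESeq2 test, 0 without cell total replicate 1, and 1 without cell total replicate 2 or 3, lEV total replicate 2 or 3, or any 1 cell rPAL library. The median was 1.13, or 1.92 relative to all features. Most entries did not rise with the share. In lEV 33 of the 45 were lower in rPAL than in total RNA (73.3%, against 30.4% of all features) and 3 higher (6.67%, against 10.7%), with a median of -2.45. In cells 38 were lower (84.4%, against 9.87%) and 2 higher (4.44%, against 8.18%), with a median of -3.78. Among these entries, copies of RNA5-8SN2 appear to share reads, so the counts are of entries and not of independent rRNAs.

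The 3 called entries carried most of the lEV rPAL share. URS0002340650 had 251406, 159508 and 236874 CPM in lEV rPAL replicates, against 6883, 4018 and 6493 CPM in lEV total replicates. HL60 cells themselves had 5097, 9217 and 7014 CPM in rPAL replicates, against 1708, 1578 and 1721 CPM in total replicates. It was higher in rPAL RNA in both sources, without overlap, and by more in lEV. The log2 difference was 2.29 ± 0.62 (SE, adjusted p = 0.0272). URS000234028B gave 2.26 ± 0.64 (SE, adjusted p = 0.032), with 247444, 156668 and 233706 CPM in lEV rPAL replicates. These levels are close to those of URS0002340650, so both entries may share reads and need not be independent calls.

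URS0002345A45, named after its values were seen, changed direction between the sources. It had 74650, 80010 and 150729 CPM in lEV rPAL replicates, against 26107, 10002 and 12249 CPM in lEV total replicates. Its levels in cells were 14590, 23817 and 19623 CPM in rPAL replicates, against 68696, 42313 and 43204 CPM in total replicates. The groups did not overlap in either source, with rPAL above total RNA in lEV and below it in cells. This gave a log2 difference of 3.03 ± 0.69 (SE, adjusted p = 0.0143) and was called in 17 alternatives, not without cell total replicate 1. That was more than the 10 of URS0002340650 and the 9 of URS000234028B. These last 2 were lost without lEV total replicate 2 or 3 or any single cell rPAL or cell total library, and URS000234028B also without lEV rPAL replicate 2. The part that the abundance of these entries in lEV rPAL RNA has in the other differences was not tested beyond a fit without rRNA, in which 1166 features were called.

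**Figure D4:**
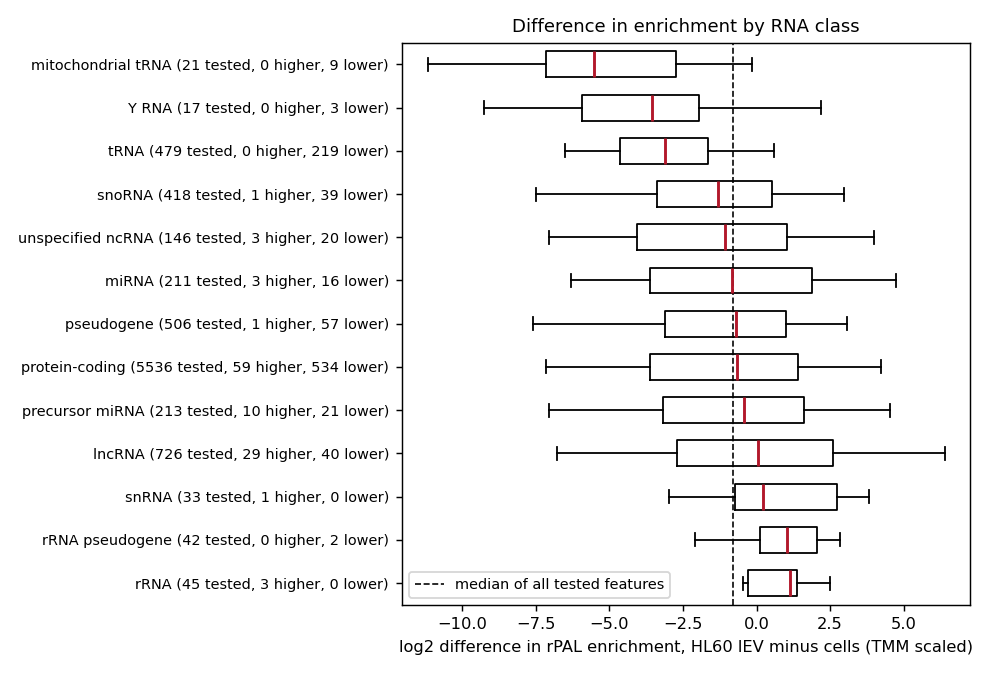
Log2 enrichment difference (HL60 lEV minus cells) by RNA class, over tested features. Boxes span the quartiles with the median, whiskers run from the 5th to the 95th percentile, and the dashed line is the median of all features, -0.79. The tRNA, mitochondrial tRNA and Y RNA boxes lie lowest and the rRNA box lies above the line.

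Y RNAs bind the Ro60 protein and are abundant in vesicle RNA. Of 17 Y RNA features tested 3 were lower (17.6%, against 11.4% of all features) and none was higher (1 in the DESeq2 test), with a median of -3.56, or -3.29 with bounded features at their bound. The number lower was 1 without scaling and with DESeq2's size factors, 1 without any single cell total library, 1 without lEV total replicate 1 or 2, and 0 with a count required in every group, where 8 were tested. In lEV 13 of them were lower in rPAL than in total RNA (76.5%, against 30.4% of all features), and in cells 4 were lower (23.5%, against 9.87%). In total RNA 3 were higher in lEV than in cells (17.6%, against 0.828% of all features, median 4.17). RNY4P20 had no count in lEV rPAL libraries, against 99.0, 114.3 and 18.3 CPM in lEV total replicates. Among cell libraries it had 0, 1.04 and 0.314 CPM in rPAL replicates, against 3.42, 6.04 and 2.8 CPM in total replicates. It was thus an RNA of total lEV libraries, and its enrichment was at least 47.5-fold lower in lEV (adjusted p = 0.0117).

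RNY4P6 had 0.847, 1.85 and 0.804 CPM in lEV rPAL replicates, against 159.2, 115.2 and 22.5 CPM in lEV total replicates. Cell libraries of rPAL RNA had 0.169, 0.104 and 2.04 CPM, against 3.21, 3.29 and 2.66 CPM in cell total libraries. The groups did not overlap in either source. The fitted log2 difference was -5.45 ± 1.52 (SE, adjusted p = 0.0318), called in 9 of 19 alternatives. It was not called without lEV total replicate 1 or 2 or any single cell total library, nor without cell rPAL replicate 3, where it was -3.38.

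The parent genes were not called. RNY1 had 47.0, 40.7 and 0 CPM in lEV rPAL replicates, against 375.0, 184.9 and 100.1 CPM in lEV total replicates. Its cell levels were 6.58, 25.4 and 14.3 CPM in rPAL replicates, against 50.2, 58.2 and 41.3 CPM in total replicates, without overlap in either source. It gave a log2 difference of -1.95 ± 1.65 (SE, adjusted p = 0.477). RNY3 gave -3.48 ± 2.02 (SE, adjusted p = 0.273) and RNY4 gave 2.20 ± 2.24 (SE, adjusted p = 0.57). Single libraries decided both, since RNY3 was called at -12.84 without lEV rPAL replicate 2, and RNY4 gave -5.99 without lEV rPAL replicate 1.

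MicroRNA was mostly lower in rPAL than in total RNA in both sources. MicroRNAs are short RNAs that repress mRNAs and are cut from hairpin precursors. Of 211 mature entries tested, 143 were lower in lEV (67.8%, against 30.4% of all features, median -5.81) and 127 in cells (60.2%, against 9.87%, median -4.90). Their difference was higher for 3 (1.42%, against 1.34% of all features) and lower for 16 (7.58%, against 11.4%), with a median of -0.84. Of 213 precursor entries, 156 were lower in lEV (73.2%, against 30.4%, median -5.80) and 152 in cells (71.4%, against 9.87%, median -5.10). The difference of precursors was higher for 10 (4.69%, against 1.34%) and lower for 21 (9.86%, against 11.4%), with a median of -0.44. The balance of these calls rests on the scaling. Precursors gave 13 higher and 9 lower without scaling, 13 and 8 with DESeq2's size factors (median 0.50), and 25 and 13 in the DESeq2 test. Mature entries gave 4 and 4, 3 and 3, and 11 and 11. As a share, precursors held 0.534, 0.743 and 0.474% in lEV rPAL replicates, against 6.48, 1.43 and 6.73% in lEV total replicates. In cells they held 0.741, 1.01 and 0.727% in rPAL replicates, against 22.2, 17.2 and 22.7% in total replicates.

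A few entries of these classes stood against that pattern. The precursor entry URS0000BA5588 had 28.4, 33.8 and 20.9 CPM in lEV rPAL replicates, against 561.4, 1252 and 2227 CPM in lEV total replicates. For cells the levels were 2240, 4080 and 2302 CPM in rPAL replicates, against 402.4, 206.9 and 366.4 CPM in total replicates. It was depleted by rPAL in lEV and enriched by rPAL in cells, without overlap in either. The enrichment difference was -9.44 ± 0.89 (log2, SE, adjusted p = 7.29e-05), called in all 19 alternatives.

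The mature entry URS0000239117 had 4.24, 7.86 and 6.43 CPM in lEV rPAL replicates, against 8.3, 3.29 and 48.8 CPM in lEV total replicates. In cells it had 3218, 3668 and 3178 CPM in rPAL replicates, against 519.0, 366.2 and 719.8 CPM in total replicates. The lEV groups overlapped and the cell groups did not. Its log2 difference was -4.92 ± 0.97 (SE, adjusted p = 0.00681), called in all 19 alternatives, and it was -3.74 without lEV total replicate 3.

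MIR7977 followed the same course. It had 23.7, 0.694 and 0.201 CPM in lEV rPAL replicates, against 6.04, 1.39 and 19.8 CPM in lEV total replicates. The cell values were 1284, 2805 and 2235 CPM in rPAL replicates, against 42.5, 27.5 and 42.1 CPM in total replicates. The lEV groups overlapped and the cell groups stood apart. The log2 difference was -6.27 ± 1.71 (SE, adjusted p = 0.0297), with a log2 ratio of 5.40 in cells, and 12 of 19 alternatives called it. The call was lost, among others, without lEV total replicate 1 or 3 or any single cell total library. Without lEV rPAL replicate 1, the one with most counts in that group, the log2 difference was -10.76.

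The mature entry URS00004AFF8D, higher in the difference, was depleted by rPAL in both sources, by less in lEV than in cells. It had 36.2, 40.2 and 58.5 CPM in lEV rPAL replicates, against 258.7, 39.6 and 88.5 CPM in lEV total replicates. HL60 cells themselves had 25.1, 16.7 and 12 CPM in rPAL replicates, against 1419, 1168 and 1754 CPM in total replicates. This gave a log2 difference of 3.80 ± 0.95 (SE, adjusted p = 0.0209), from -2.95 in lEV and -6.75 in cells. The lEV groups overlapped and the cell groups did not, and it was called in 13 of 19 alternatives, not without lEV total replicate 3, cell rPAL replicate 2 or 3 or any single cell total library. The precursor entry URS000230EC1B, in contrast, was enriched by rPAL in lEV, with 2537, 927 and 1947 CPM in lEV rPAL replicates against 11.7, 7.61 and 78.0 CPM in lEV total replicates. Its levels in cells were 65.6, 114.0 and 115.6 CPM in rPAL replicates, against 31.9, 25.2 and 32.6 CPM in total replicates. Neither source overlapped, and the log2 difference was 3.57 ± 0.98 (SE, adjusted p = 0.0306), called in 9 of 19 alternatives and not without lEV rPAL replicate 1, lEV total replicate 1 or 2, or any single cell rPAL or cell total library.

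Small nucleolar RNAs guide the modification of rRNA. Of 418 snoRNA features tested 1 was higher (0.239%, against 1.34% of all features) and 39 were lower (9.33%, against 11.4%), with a median of -1.30, or -0.73 with bounded features at their bound. The number lower was 15 without scaling and with DESeq2's size factors, 11 without any single cell total library and 1 with a count required in every group. The snoRNA entry URS0000361A8E had no count in lEV rPAL libraries, against 205.3, 144.2 and 24.1 CPM in lEV total replicates. Among cell libraries it had 28.3, 90.3 and 100.6 CPM in rPAL replicates, against 3143, 2260 and 613 CPM in total replicates. It was lower in rPAL RNA in both sources, and its enrichment was at least 21.7-fold lower in lEV (adjusted p = 0.0108). Of 33 snRNA features, RNAs of the spliceosome, 1 was higher (3.03%, against 1.34% of all features) in edgeR at an adjusted p under 0.05. None was lower, against 11.4% of all features.

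Small nucleolar RNA host genes carry snoRNAs in their introns. Of 22 tested 3 were lower (13.6%, against 11.4% of all features) and none was higher, with a median of -2.32, or -1.79 with bounded genes at their bound. GAS5 (chr1:173863900-173868882, minus strand) had 0, 0.231 and 0.201 CPM in lEV rPAL replicates, against 39.4, 15 and 28.2 CPM in lEV total replicates. Cell libraries of rPAL RNA had 287.5, 261.9 and 213.5 CPM, against 272.6, 201.1 and 232.1 CPM in cell total libraries. The cell groups overlapped, and in lEV rPAL RNA it had 2 counts against 1056 in lEV total RNA. That is 126-fold lower per library total (95% interval 52.3 to 1565, counting error only).

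The log2 difference of GAS5 was -8.48 ± 1.07 (SE, adjusted p = 0.000282), called in all 19 alternatives, and it was -7.79 without lEV rPAL replicate 1 and -9.31 without lEV rPAL replicate 2. SNHG7, another host gene, had no count in lEV rPAL libraries, against 7.21, 5.19 and 14 CPM in lEV total replicates. For cells the levels were 3.04, 13.9 and 12 CPM in rPAL replicates, against 12.1, 8.86 and 13.6 CPM in total replicates. The cell groups overlapped, and its enrichment was at least 37.5-fold lower in lEV (adjusted p = 0.00627). The remaining call was EPB41L4A-AS1.

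LRRC75A-AS1, which also holds snoRNA genes (SNORD49A, SNORD49B and SNORD65) on its strand, had 0.424, 0 and 0 CPM in lEV rPAL replicates, against 129.5, 183.1 and 119.3 CPM in lEV total replicates. In cells it had 19.2, 46.0 and 27.0 CPM in rPAL replicates, against 108.3, 114.5 and 107.8 CPM in total replicates. It was lower in rPAL RNA in both sources without overlap. The fitted log2 difference was -8.80 ± 1.30 (SE, adjusted p = 0.000866), and it was -11.73 without lEV rPAL replicate 1, the only one of that group with counts. With 2 counts in lEV rPAL RNA against 5661 in lEV total RNA, it was 677-fold lower per library total (95% interval 281 to 8381, counting error only). In libraries of this kind, counts on a host gene may be those of the small RNA inside it.

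Long non-coding RNAs (lncRNA) had a median of 0.06 after TMM scaling, or 0.85 relative to all features, with a range of 0.80 to 1.78 over the alternatives. Of 726 tested 29 were higher (3.99%, against 1.34% of all features) and 40 lower (5.51%, against 11.4%). That balance turned under other scalings, with 30 higher and 17 lower without scaling, 33 and 14 with DESeq2's size factors, and 85 and 35 in the DESeq2 test. Some of the larger positive values belonged to loci with few counts outside lEV rPAL RNA. AC010745.2, AC027449.1, RUBCN and IRF2BPL passed the filter on low counts (0.927 CPM in at least 3 of the 12 libraries) only through lEV rPAL RNA, and F11-AS1 and ROBO2 only through cell rPAL RNA. These 6 had to differ once tested, so their values are given as a description without p-values. AC010745.2 (chr2:16224047-16333978) had 46.8, 35.6 and 332.1 CPM in lEV rPAL replicates, against 0.0838, 0 and 0.148 CPM in lEV total replicates. The cell values were 0, 0.311 and 0 CPM in rPAL replicates, against 0.642, 1.21 and 0.629 CPM in total replicates. The groups did not overlap in either source, and the log2 difference was 12.27 ± 1.81 (SE). With 2027 counts in lEV rPAL RNA against 3 in lEV total RNA, its ratio per library total was 1885 (95% interval 644 to 9147, counting error only). That interval shows how few the lEV total counts are. It is no test of the ratio, since the locus passed the filter only through lEV rPAL RNA. The log2 difference was 10.85 without lEV rPAL replicate 3 and 14.82 without cell rPAL replicate 2, where the cell rPAL counts lay.

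AC027449.1 (chr18:22347846-22348252) reached the highest level of these, with 9550, 83.0 and 4170 CPM in lEV rPAL replicates, against 0.419, 0 and 0.37 CPM in lEV total replicates. HL60 cells themselves had 0.843, 0.104 and 0.157 CPM in rPAL replicates, against 0, 0.134 and 0.0699 CPM in total replicates. The lEV groups did not overlap, although lEV rPAL replicate 2 was far below the others, and the cell groups overlapped. The enrichment difference was 11.24 ± 2.68 (log2, SE).

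Other loci were seen almost only in cell rPAL RNA. HOXA-AS3 (chr7:27129977-27155928), an antisense transcript of the HOXA cluster, had 0.212, 1.39 and 0.402 CPM in lEV rPAL replicates, against 0.922, 0.146 and 0.592 CPM in lEV total replicates. Its levels in cells were 363.6, 113.3 and 97.5 CPM in rPAL replicates, against 1.85, 1.48 and 3.56 CPM in total replicates. The lEV groups overlapped near 0 and the cell groups did not. Its log2 difference was -6.97 ± 1.34 (SE, adjusted p = 0.00606), and it was -8.61 without lEV rPAL replicate 2. F11-AS1 had no count in lEV rPAL libraries, against 0.671, 0 and 1.33 CPM in lEV total replicates. Among cell libraries it had 377.4, 117.8 and 116.0 CPM in rPAL replicates, against 0.285, 0.336 and 0.769 CPM in total replicates, and its enrichment was at least 1258-fold lower in lEV. AL162411.1, which holds the 7SL copy RN7SL123P on its strand, was a similar locus, with 345.0, 101.8 and 77.5 CPM in cell rPAL replicates and at most 2.94 CPM in any other library (log2 difference -7.26 ± 1.53, SE, adjusted p = 0.0102, not called without cell total replicate 2).

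Of 5536 protein-coding genes tested, 59 were higher (1.07%, against 1.34% of all features) and 534 lower (9.65%, against 11.4%). Their median was -0.65, against -0.79 for all features. These counts were 58 and 153 without scaling, 66 and 139 with DESeq2's size factors, and 14 and 10 with a count required in every group. Leaving out 1 library gave 7 to 150 higher and 13 to 1152 lower calls. There were 17, 13 and 17 lower without cell total replicates 1, 2 and 3, and 1152 lower without lEV rPAL replicate 2. NSG1, a neuronal endosomal protein, resembled HOXA-AS3, with 0.424, 2.77 and 0 CPM in lEV rPAL replicates, against 3.77, 0.146 and 5.47 CPM in lEV total replicates. Cell libraries of rPAL RNA had 442.8, 132.1 and 117.3 CPM, against 1.64, 2.22 and 3.98 CPM in cell total libraries. The log2 difference was -8.62 ± 1.78 (SE, adjusted p = 0.00918), and it was -11.35 without lEV rPAL replicate 2. ROBO2, an axon guidance receptor that holds the U6 copy RNU6-386P on its strand, had 0, 0.462 and 0.201 CPM in lEV rPAL replicates, against 0.168, 0.219 and 0.148 CPM in lEV total replicates. For cells the levels were 186.2, 87.2 and 102.8 CPM in rPAL replicates, against 0.713, 0.403 and 1.12 CPM in total replicates. This gave a log2 difference of -8.01 ± 1.36 (SE), and it was -9.44 without lEV rPAL replicate 2. It had 3 counts in lEV rPAL RNA against 7 in lEV total RNA, a ratio per library total of 1.2 (95% interval 0.199 to 5.24, counting error only). For NSG1 and ROBO2 the lEV groups overlapped near 0 and the cell groups did not. In all 5 of these loci cell rPAL replicate 1 was the highest library.

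Among mRNAs with a positive difference, RUBCN, a regulator of autophagy that holds MIR922 on its strand, had 91.5, 48.8 and 103.9 CPM in lEV rPAL replicates, against 0.168, 0.0732 and 0.592 CPM in lEV total replicates. The cell values were 0.337, 0.104 and 0 CPM in rPAL replicates, against 0.428, 0.269 and 0.489 CPM in total replicates. IRF2BPL, a transcriptional regulator, had 71.4, 68.2 and 57.9 CPM in lEV rPAL replicates, against 0.335, 0.293 and 0.37 CPM in lEV total replicates. Its cell levels were 0, 0.414 and 0 CPM in rPAL replicates, against 0.357, 0.537 and 0.28 CPM in total replicates. For both genes the lEV groups stood apart and the cell groups overlapped. RUBCN had 3 counts in cell rPAL RNA against 17 in cell total RNA, 2.88-fold lower per library total (95% interval 0.832 to 15.3, counting error only). The log2 differences were 8.82 ± 1.49 for RUBCN and 8.07 ± 1.56 for IRF2BPL (SE). For IRF2BPL it was 10.95 without cell rPAL replicate 2.

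**Figure D5:**
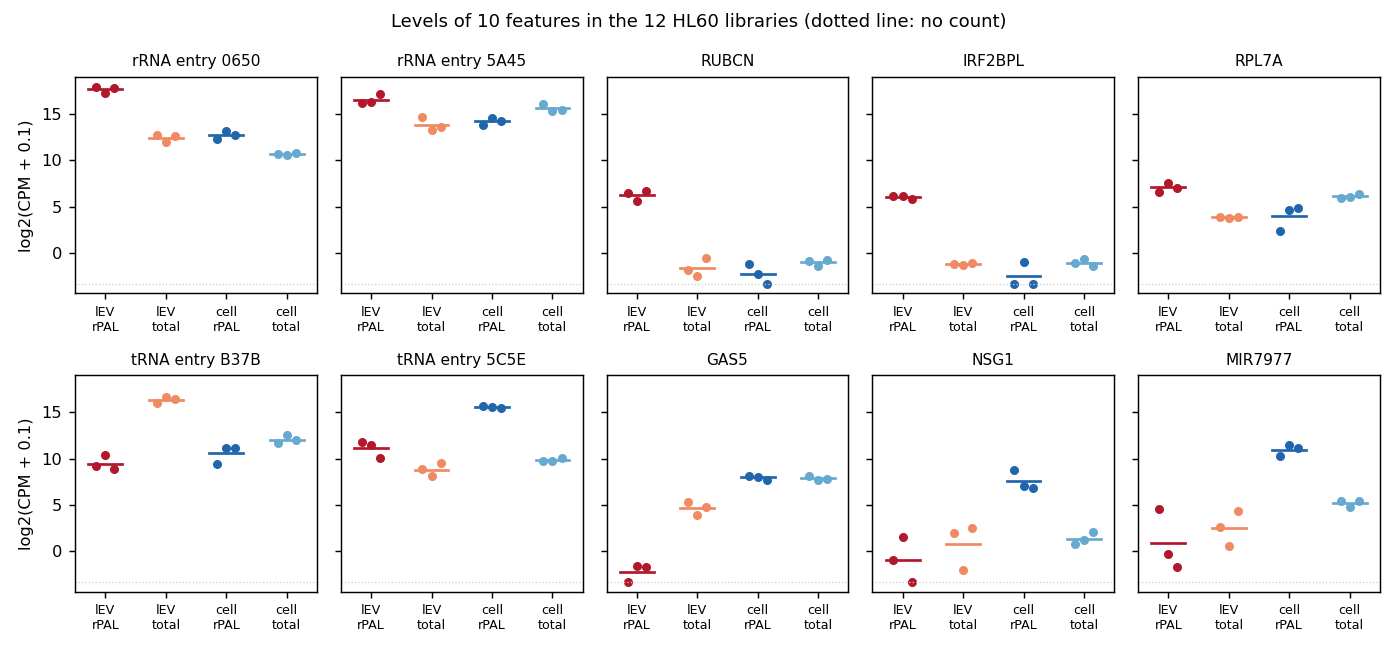
Level of 10 features in each of the 12 HL60 libraries, as log2(CPM + 0.1), in lEV rPAL, lEV total, cell rPAL and cell total RNA. RUBCN, IRF2BPL, RPL7A and the rRNA entries are highest in lEV rPAL RNA, NSG1 and MIR7977 in cell rPAL RNA, and GAS5 is lowest in lEV rPAL RNA.

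Of 76 ribosomal protein mRNAs tested, 14 were called and 62 were not, where 12.7% of all features were called. Of 47 large-subunit genes tested 1 was higher (2.13%, against 1.34% of all features) and 6 lower (12.8%, against 11.4%), with a median of -1.49. Of 29 small-subunit genes 1 was higher (3.45%) and 6 lower (20.7%), with a median of -1.99. Of these 14 calls, 9 had no lEV rPAL count. The lower genes were RPL19, RPL27, RPL38, RPL35A, RPL23A and RPL17 of the large subunit, and those of the small subunit included RPS27A, RPS14, RPS27 and RPS28.

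RPL7A, the higher gene of the large subunit, holds 4 snoRNA genes on its own strand, so its counts may be those of a snoRNA. It had 97.0, 191.7 and 132.9 CPM in lEV rPAL replicates, against 15, 13.7 and 14.5 CPM in lEV total replicates. RPL7A levels in cells were 4.89, 25.5 and 28.8 CPM in rPAL replicates, against 62.6, 63.3 and 84.2 CPM in total replicates. It was enriched by rPAL in lEV and depleted in cells, both without overlap (log2 difference 4.23 ± 1.03, SE, adjusted p = 0.0187, called in 14 of 19 alternatives and not without lEV total replicate 3 or any single cell total library).

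Replication-dependent histone mRNAs are made in S phase and lack a poly(A) tail. Of 55 genes tested by symbol, a list that also takes in variant histones such as H2AFY, 3 were higher (5.45%, against 1.34% of all features) and 2 lower (3.64%, against 11.4%), with a median of -0.13. All 3 higher genes encode histone H4. HIST1H4E had 195.7, 40.5 and 298.9 CPM in lEV rPAL replicates, against 17.4, 1.9 and 6.66 CPM in lEV total replicates. Among cell libraries it had 2.19, 2.38 and 3.46 CPM in rPAL replicates, against 12.7, 7.52 and 7.9 CPM in total replicates. It was higher in rPAL RNA in lEV and lower in cells, without overlap (log2 difference 5.11 ± 1.26, SE, adjusted p = 0.0202, called in 12 of 19 alternatives and not without lEV total replicate 3, cell rPAL replicate 1 or 2 or any single cell total library).

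HIST2H4A had 52.5, 85.5 and 179.5 CPM in lEV rPAL replicates, against 9.81, 2.27 and 6.95 CPM in lEV total replicates. Cell libraries of rPAL RNA had 12, 15.1 and 14.6 CPM, against 22.7, 14.2 and 12.1 CPM in cell total libraries, which overlapped. Its log2 difference was 3.26 ± 1.03 (SE, adjusted p = 0.0473), and only 4 of 19 alternatives called it. HIST2H4B, the near-identical neighbouring copy, had similar levels (3.48 ± 0.99, SE, adjusted p = 0.0334), so the 2 may share reads. The lower genes were HIST1H3J and HIST1H2AJ.

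Of the fixed panel of 43 genes, 26 were tested and 3 were called (GAS5, MIR7977 and MT-CO1), where 12.7% of all features were called. HP, which encodes haptoglobin, was strongly enriched by rPAL in both sources. It had 4932, 43307 and 7920 CPM in lEV rPAL replicates, against 24.9, 7.32 and 110.5 CPM in lEV total replicates. For cells the levels were 37000, 12141 and 26928 CPM in rPAL replicates, against 21.3, 8.12 and 31.3 CPM in total replicates. The difference was not called (-2.22 ± 1.20, SE, adjusted p = 0.235), and it was -4.38 and called without lEV rPAL replicate 2, which was the highest lEV library.

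ZDHHC3, a palmitoyltransferase, and LINC01780 showed similar differences, -2.23 ± 1.17 (SE, adjusted p = 0.221) and -2.29 ± 1.25 (SE, adjusted p = 0.241). Both were called without lEV rPAL replicate 2, at -4.11 and -4.17. AL355075.4, a locus that holds RPPH1, the RNA of RNase P, on its strand, was enriched by rPAL in both sources and gave -0.53 ± 0.95 (SE, adjusted p = 0.777). It was 0.14 without scaling and 0.50 with DESeq2's size factors, so its sign depends on the scaling. TMEM107, which holds the U8 snoRNA gene SNORD118 on its strand, was depleted by rPAL in both sources, by less in lEV, and gave 2.23 ± 0.78 (SE, adjusted p = 0.0692). It was called with DESeq2's size factors, in the DESeq2 test and without lEV rPAL replicate 1.

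In KG1a, the other acute myeloid leukaemia line of the series, also labelled WT and cultured alike, the same contrast over 14 libraries gave no call among 10442 features in edgeR (0.0% called). There, 1498 features had an unadjusted p under 0.05 and the DESeq2 test called 364. Over the 473 tRNA entries tested in both lines the median log2 difference was -3.17 in HL60 and -0.61 in KG1a, beside -0.89 and -0.48 over all 6855 shared features. For the 21 mitochondrial tRNA genes it was -5.51 in HL60 and -0.49 in KG1a, for 45 rRNA entries 1.13 and -1.57, and for 12 Y RNA features -3.52 and -3.03. As shares of counts, the difference of the 2 changes had the same sign in both lines, -85.7 points in HL60 and -34.7 in KG1a for tRNA, -0.325 and -0.453 for mitochondrial tRNA, and 56.2 and 9.09 for rRNA. The changes behind these values were not all alike. From total to rPAL RNA the mean tRNA share changed by -38.8 points in HL60 lEV and by 12.4 in KG1a lEV. In cells it rose in both lines, by 46.9 and 47.1 points. The mean rRNA share changed by -7.21 points in HL60 cells and by 5.77 in KG1a cells, and rose by 49.0 and 14.9 points in lEV. The tRNA share was 78.4, 53.5 and 16.9% in KG1a lEV rPAL replicates, against 36.7, 44.2 and 30.8% in KG1a lEV total replicates, so those rPAL libraries spread widely.

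The difference between the lines was itself tested over 26 libraries. Of 13720 features 8 differed (0.0583%), all lower in HL60 than in KG1a and 7 of them without a count in HL60 lEV rPAL RNA. The number was 1 without scaling, 2 with DESeq2's size factors, 0 with a count required in every group, 1 with the replicate block and 457 in the DESeq2 test. They comprised the mRNAs SUMF2 and HIST1H3J, 1 lncRNA gene without a symbol, 2 snoRNA entries, and 1 entry each of tRNA, precursor miRNA and unspecified ncRNA. The lncRNA gene, ENSG00000308496.1, had no count in HL60 lEV rPAL replicates, against 8.72, 0.658 and 30.5 CPM in HL60 lEV total replicates. In HL60 cells it had 403.9, 504.4 and 419.1 CPM in rPAL replicates, against 73.3, 64.2 and 114.1 CPM in total replicates. In KG1a lEV it had 21.0, 59.2 and 15.3 CPM in rPAL replicates, against 108.5, 72.4 and 89.3 CPM in total replicates. In KG1a cells it had 237.4, 255.7, 173.6 and 83.7 CPM in rPAL replicates, against 42.9, 119.3, 143.9 and 184.9 CPM in total replicates. All 3 KG1a lEV rPAL libraries held counts of it and no HL60 one did (adjusted p = 0.0398 for the difference between lines). With 3 KG1a rPAL libraries of divergent composition left out, an alternative chosen after seeing the data, 544 features differed, 34 higher and 510 lower in HL60.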

How the data were processed

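Small RNA libraries of HL60 lEV and cells, as rPAL-enriched and total RNA, were compared through one table of raw read counts per feature that the authors deposited. The submitters' processing notes name Bowtie2 as aligner and GRCh38 (hg38) as genome. Which versions, counter and annotation release were used, and what was done with reads that fit several loci, is not given in the sources used here. The table holds 90127 features, 86401 with Ensembl and 3726 with RNAcentral identifiers. GENCODE 29 gave symbols and coordinates to 57355. RNAcentral entries, described by class only, held 67.8% of the 12 libraries' counts, and features without a symbol 88.2%.

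Counts were fitted in edgeR 4.0.16 (R 4.3.3) with TMM scaling, filterByExpr, robust quasi-likelihood tests and Benjamini-Hochberg adjustment over all features tested. A feature was called at an adjusted p under 0.05. The 12 HL60 libraries entered 1 fit with 1 coefficient a group, and all HL60 contrasts come from it and share its libraries. KG1a (14 libraries) and both lines together (26 libraries) were fitted separately. The scripts were tested on simulated data for the HL60 difference. True log2 differences of 2, 4 and 6 were called with the right sign in 0, 12.1 and 28.8% of changed features. Most true differences were thus missed there, and 6.9% of calls were false. A feature not called may therefore still differ. CPM are per library total. A group without counts was set to 3 counts in all for folds, and intervals (exact, 95%) cover counting error only.

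Named features are the 10 largest and 10 smallest called differences with a symbol and at least 50 CPM in a group (of these the text gives a part, and some items are not reported here), the 2 most abundant called in each direction of a class with at least 5 tested, a panel of 43 genes and members of the gene lists. URS0002345A45, URS0000145C5E and ENSG00000308496.1 as a difference between lines were named after their values were seen. Features of at least 5000 counts whose log2 counts differed by at most 0.2 in every library were taken to share reads (49 in 13 sets). The contrast, lists and members were chosen with earlier results of these data known. Alternatives were other scalings, no filter, a count in every group, rRNA left out, a replicate block, DESeq2 1.42.0 and each library left out.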

Additional observations from a re-analysis of the deposited data

Results flagged for a closer look

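The enrichment difference between HL60 lEV and cells is itself a test of whether the rPAL effect differed between sources, and it did for 1075 features. The test between lines found that this difference was not the same in HL60 and KG1a for 8 features, among them SUMF2, HIST1H3J and ENSG00000308496.1, each with an adjusted p of 0.0398. SUMF2 had no count in HL60 lEV rPAL replicates, and 5.6, 3.77 and 0 CPM in KG1a lEV rPAL replicates. HIST1H3J had no count in HL60 lEV rPAL replicates, and 0.196, 0.431 and 0 CPM in KG1a lEV rPAL replicates. Neither mRNA had a count in any of the 4 KG1a cell rPAL replicates. Their differences between lines thus rest on groups without a count in both lines, and not on lEV rPAL RNA alone. Among the 4 KG1a cell rPAL libraries, the only group of more than 3 rPAL libraries compared here, mitochondrial tRNA took 0.875% of counts in replicate 2, against 0.365, 0.395 and 0.397% in replicates 1, 3 and 4. The gap from replicate 2 to the nearest library, divided by the range of the group, exceeded Dixon's 95% critical value, which chance alone exceeds in a small share of groups.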

How the results depend on the processing

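The enrichment difference gave 1075 calls, and separate fits under other choices gave 485 without scaling, 450 with DESeq2's size factors, 384 with no filter and 167 with a count required in every group. The 18 correlations of same-numbered HL60 libraries' deviations lay between -0.046 and 0.104, so the replicate numbers were not taken as pairs, and the fit with a replicate block called 449. The ranges over fits that leave out 1 library were 169 to 2039 calls for the difference, 2462 to 5212 for lEV rPAL against total, 770 to 2523 for cell rPAL against total, 2702 to 4444 for rPAL lEV against cells, 18 to 437 for total lEV against cells, and 0 to 43 for KG1a. With a count required in every group, lEV rPAL against total gave 1295, cell rPAL against total 602, rPAL lEV against cells 894 and total lEV against cells 73. Total lEV against cells gave 384 without scaling. The DESeq2 test gave 2320 for cell rPAL against total, 619 for total lEV against cells, 364 for KG1a and 457 for the difference between lines. KG1a gave 26 without scaling and 10 with DESeq2's size factors. The difference between lines gave 1, 2, 0 and 1 calls without scaling, with DESeq2's size factors, with a count in every group and with the replicate block, and 544 without 3 KG1a libraries. The tRNA difference of -85.7 points was -67.3 without rRNA counts (-88.8 to -82.1 leaving out 1 library), and the rRNA difference of 56.2 points was 50 without tRNA counts (52.0 to 62.7 leaving out 1 library). AL355075.4 turned to 0.14 without scaling and to 0.50 with DESeq2's size factors and with the DESeq2 test, MT-TN to -0.72 without lEV rPAL replicate 2 (range to 2.57 leaving out 1 library), and RNY4 to -5.99 without lEV rPAL replicate 1 (range to 3.77). The cause of these changes was not tested. Depth of lEV rPAL libraries limits what a missing count shows.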
